A study of Capra hircus with 21 samples.

Results

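The comparison described here sets goat (Capra hircus) embryos at the 16-cell stage against embryos at the 8-cell stage, over every gene of the deposited expression table. It rests on 6 of the 21 libraries of the study, namely 8-cell A, B and C and 16-cell A, B and C, which were chosen by their titles. The whole study profiled RNA of oocytes matured in the animal and of embryos that developed in the animal, at 7 stages from the oocyte to the blastocyst, with 3 libraries per stage. All embryos were untreated and the labels name no genetic alteration, breed or age of the donor animals. They do not say how many embryos went into a library, or whether those of a stage had separate animals or collections as their source. A p-value here thus measures only how these libraries spread, which may be technical.

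An embryo starts life on RNA and protein that the oocyte laid down while it grew. During cleavage these maternal transcripts are degraded, and the embryo's own genome is switched on in waves, a handover called the maternal-to-zygotic transition. In ruminants the main wave is usually placed between the 8-cell and the 16-cell stage, later than in the mouse, and it supplies the ribosomes, the polymerases and the transcription factors with which the embryo then compacts and forms its first cell lineages.

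Levels are given in RPM (reads-per-million), the reads of a gene scaled to all reads of its library. They were computed from the deposited RPKM values by removing an offset of 0.01 and multiplying by the gene's listed span in kilobases, because the deposited values had been divided by that whole span, introns included. RPM follows a gene across libraries but does not compare different genes, since longer transcripts give more reads. Runs of 3 values are always libraries A, B and C of the stage named. The 8-cell libraries held 19200000 to 23400000 reads in listed genes and the 16-cell libraries 12700000 to 17700000, out of implied totals of 47900000 to 55800000 and 39600000 to 51000000 reads. In a library 3 reads amounted to 0.0538 to 0.0757 RPM, and a level at or under that cannot be told from 0. Reads were not marked by molecule, so this floor covers counting error only.

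A large part of the transcript pool was exchanged between the stages. Genes that had at least 1 RPM in at least 3 of the 21 libraries were tested on log2(RPM + 1) with limma, and calls needed a log2 fold change of at least 1 in either direction with an adjusted p (Benjamini-Hochberg) below 0.05. Of 10384 genes tested, 1602 (15.4%) were called higher and 3187 (30.7%) lower at the 16-cell stage. The genes called higher took up 5.53, 5.26 and 6.77% of the reads of all tested genes in the 8-cell libraries and 44.7, 40.6 and 24.1% in the 16-cell libraries. The genes called lower took up 50.1, 52.8 and 47.7% at the 8-cell stage and 9.84, 13.5 and 26.9% at the 16-cell stage. These shares describe the exchange and test nothing, since the same libraries chose the genes. A single gene without a symbol held 9.06 to 13.6% of the reads of the genes called higher in the 16-cell libraries.

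The direction of the balance depends on the scaling. RPM counts a gene against all reads of its library, and the share of reads that fell in listed genes was lower at the 16-cell stage (32.1 to 34.6%) than at the 8-cell stage (37.5 to 42%). The median gene had a log2 fold change of -0.52. Scaled to the reads in listed genes it stood at -0.35, with 1805 genes called higher and 2508 lower. Changes of single genes and lists are to be read against the median of their scale. Counts of called list members on RPM are to be read against the 15.4% called higher and 30.7% called lower among all genes tested. Higher calls made up 33.5% of all calls on RPM. With median-ratio scaling, which sets the typical gene equal between libraries, 2061 genes were called higher and 1798 lower, or 53.4% higher, and the median gene stood at -0.14. Of the 1602 genes called higher on RPM, 1594 kept that call with median-ratio scaling, as did 1798 of the 3187 genes called lower, and no gene was called in the opposite direction. In whole embryos a lower RPM can mean less RNA per cell, fewer cells that hold it, or more RNA of other genes in the same library. These cannot be told apart.

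**Figure D1:**
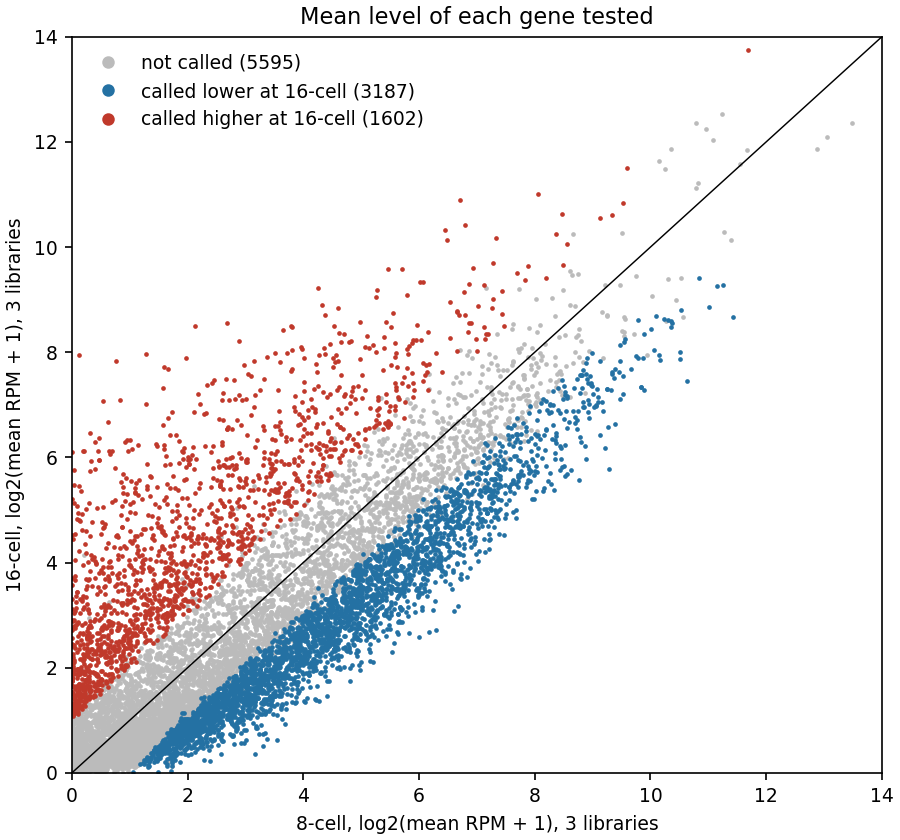
Mean level of each gene tested, as log2(mean RPM + 1), at the 8-cell stage (x axis) and the 16-cell stage (y axis), with 3 libraries per stage. Each point is a gene, red for the 1602 called higher and blue for the 3187 called lower at the 16-cell stage, and the line marks equal levels. The red points spread widely above the line at low 8-cell levels, while the blue points form a band below it that reaches the most abundant genes.

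Library 16-cell C stood apart from its stage mates and lay between the stages. Across the tested genes its log2(RPM + 1) values correlated with those of the 8-cell libraries at 0.853 to 0.882, against 0.687 to 0.726 for 16-cell A and B, and with 16-cell A and B at 0.917 and 0.904. When genes were called without 16-cell C, that library had covered a median of 68.6% of the way from the 8-cell mean to the mean of 16-cell A and B for the 1698 genes then called higher. For the 3775 genes then called lower it had covered 47.8%. It lay beyond all 8-cell libraries for 94.1% of those rises and 88.8% of those falls, so most genes had moved in the same direction in it but less far. In the other 5 libraries the same medians ran from 83.4 to 137%. Leaving out 16-cell C gave 1698 genes higher and 3775 lower, and leaving out 16-cell A gave 1499 and 2212.

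**Figure D2:**
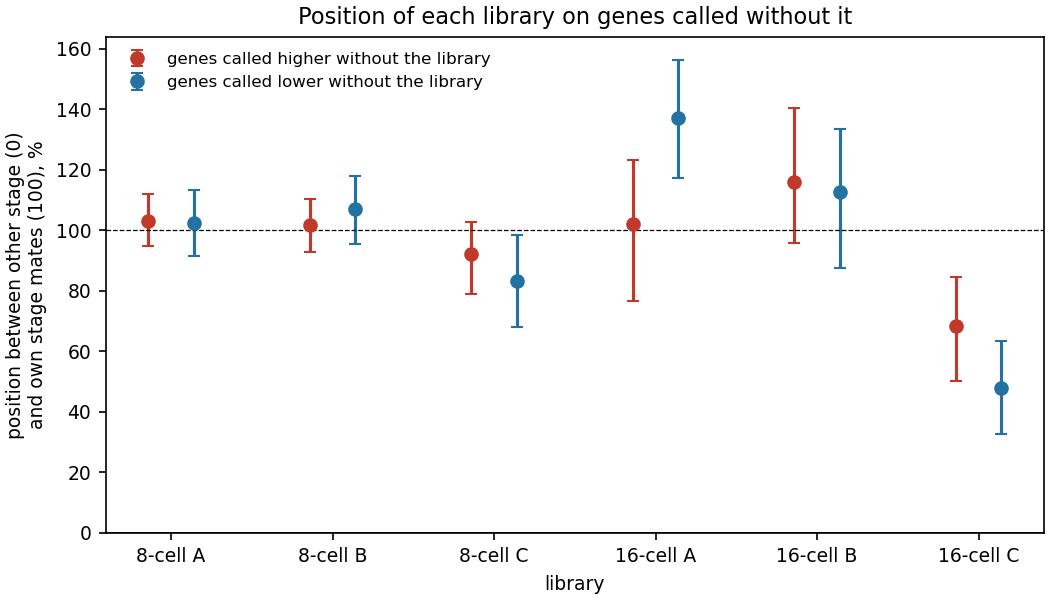
Position of each library (x axis) between the mean of the other stage (0%) and the mean of its own stage mates (100%, dashed), on the log2(RPM + 1) scale, for genes called without that library. Points are medians over genes and bars run from the lower to the upper quartile, red for genes called higher and blue for genes called lower at the 16-cell stage. Library 16-cell C sits at 68.6% for rises and 47.8% for falls, below every other library.

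Whether the number of genes detected separated the stages depended on the threshold. At least 1 RPM was reached by 8155, 8136 and 8230 genes at the 8-cell stage and by 7108, 7757 and 8361 genes at the 16-cell stage, so the groups overlapped. The means were 8174 ± 49.7 and 7742 ± 627 genes (SD, n = 3 each), with p = 0.4 in an exact two-sided permutation test, which cannot go below 0.1 with 3 libraries against 3. At least 5 RPM was reached by 5104, 5136 and 5027 genes at the 8-cell stage and by 4102, 4598 and 4978 at the 16-cell stage, without overlap, and the same exact test gave that smallest p of 0.1. At 0.1 RPM the groups overlapped (exact p = 0.7).

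Most genes that rose had already been present as RNA before the 16-cell stage, though less often than among all genes tested. Choosing genes for a low 8-cell level favours that gap. Of the 1602 genes called higher, 1007 had a mean of at least 1 RPM at the 8-cell stage and 864 (53.9%) at least 1 RPM in oocytes. Among all genes tested these were 8214 of 10384 and 7129 (68.7%). Of the genes called higher, 65 (4.06%) had 3 reads or fewer in each 8-cell library, against 191 (1.84%) of all genes tested. In each of the 12 libraries from oocyte to 8-cell, 35 (2.18%) had 3 reads or fewer, against 103 (0.992%) of all genes tested. AQP11, a water and glycerol channel, was among the 65, with no read in any 8-cell library and 18.0, 14.7 and 3.49 RPM in the 16-cell libraries. Against a floor of 3 reads per library its mean was at least 210.0-fold higher (log2 fold change 3.46, SE 0.76, adjusted p = 0.00114), a call that was lost on the deposited RPKM scale. Among genes called lower, the mean RPM at the 16-cell stage was a median of 26.8% of that at the 8-cell stage (quartiles 20.4 and 34.3%), and for 65 genes it was below 10%. A mean of at least 1 RPM in oocytes was found for 2959 (92.8%) of the genes called lower, and for 2722 (85.4%) the oocyte mean was above the 16-cell mean, against 68.7 and 49.3% of all genes tested. Choosing genes for a high 8-cell and a low 16-cell level favours both shares. All 3187 genes called lower had an 8-cell mean of at least 1 RPM, so neither share tests a maternal origin. Across the 7 stages, the highest mean of genes called higher fell on the 16-cell stage for 719, the morula for 665 and the blastocyst for 212. Choosing genes for a high 16-cell level favours the first of these counts. For genes called lower, the highest mean fell on the 8-cell stage for 1597, the 2-cell stage for 874, the oocyte for 330 and the 4-cell stage for 236. Choosing genes for a high 8-cell level favours the 8-cell count.

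The largest rises came from genes with very different roles. MED31, a subunit of the Mediator complex that links transcription factors to RNA polymerase II, stood at 0.34, 0.27 and 0.73 RPM in the 8-cell libraries and 210.0, 114 and 77.6 RPM in the 16-cell libraries (log2 fold change 6.44, SE 0.44, adjusted p = 6.24e-10). It is listed on chromosome 19 from 25043955 to 25050045. STAG2, a subunit of the cohesin ring that holds sister chromatids together, went from 2.81, 3.95 and 3.31 to 321, 618 and 147 RPM (log2 fold change 6.16, SE 0.48, adjusted p = 3.15e-09). The naming rule kept only genes whose 8-cell and 16-cell libraries did not overlap. In both genes 16-cell C was the lowest of its stage.

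TKT encodes transketolase of the pentose phosphate pathway, which supplies ribose for nucleotides. Its level was 0.143, 0.125 and 0.468 RPM at the 8-cell stage and 101, 119.5 and 41.5 RPM at the 16-cell stage (log2 fold change 6.03, SE 0.52, adjusted p = 1.20e-08). ZNF394, a zinc-finger gene, went from 0.608, 0.312 and 0.693 to 114, 122 and 65.8 RPM (log2 fold change 6.0, SE 0.46, adjusted p = 2.59e-09). FUNDC1, a mitochondrial outer-membrane receptor for mitophagy, went from 1.63, 2.58 and 1.82 to 193, 308 and 126 RPM (log2 fold change 6.04, SE 0.44, adjusted p = 1.28e-09). ATP23, a protease of the mitochondrial inner membrane that helps assemble ATP synthase, went from 1.84, 2.68 and 1.95 to 291, 249.9 and 73.7 RPM (log2 fold change 5.81, SE 0.48, adjusted p = 5.82e-09). EXOSC1, a subunit of the RNA exosome, went from 1.34, 0.936 and 2.00 to 148, 138 and 96.4 RPM (log2 fold change 5.73, SE 0.59, adjusted p = 1.53e-07). The 8-cell and 16-cell libraries of these genes did not overlap, as the naming rule required. The same held for 95.2% of all called genes and 64.7% of all genes tested.

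IL6 differed from these genes in the order of the libraries. This cytokine gene, on chromosome 4 from 89122023 to 89129240, stood at 0.661, 0.354 and 0.15 RPM at the 8-cell stage and 57.0, 50.9 and 138 RPM at the 16-cell stage (log2 fold change 5.77, SE 0.80, adjusted p = 1.40e-05), with the highest level in 16-cell C. Its means in oocytes, 2-cell and 4-cell embryos were 0.206, 0.225 and 0.157 RPM, and those in morulae and blastocysts 54.6 and 29.2 RPM. IL6ST, the signalling subunit shared by receptors of this cytokine family, was also called higher, from 0.804, 0.811 and 2.55 to 8.65, 6.91 and 5.397 RPM (log2 fold change 1.80, SE 0.51, adjusted p = 0.00576). LIFR, a receptor subunit that pairs with it, was called lower, from 21.5, 23.2 and 16.2 to 3.03, 3.22 and 3.72 RPM (log2 fold change -2.29, SE 0.46, adjusted p = 4.35e-04), and so was STAT3, the transcription factor downstream of these receptors, from 9.69, 10.7 and 7.94 to 0.41, 1.28 and 2.75 RPM (log2 fold change -2.18, SE 0.43, adjusted p = 3.30e-04). Ligand and shared receptor thus moved opposite to LIFR and STAT3 at the level of RNA. IL6ST was looked up after the values of IL6 had been seen, and its call was lost with a pseudocount of 5 RPM.

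The largest falls named here were of genes with a mean of at least 10 RPM at the 8-cell stage, as the naming rule required. TC2N, which encodes a protein with a pair of C2 domains, went from 66.7, 94.3 and 51.2 to 1.31, 3.95 and 10.9 RPM (log2 fold change -3.76, SE 0.55, adjusted p = 1.55e-05). DCLRE1C, which encodes the DNA repair nuclease Artemis, went from 61.9, 94.9 and 74.1 to 2.42, 4.27 and 10.003 RPM (log2 fold change -3.72, SE 0.59, adjusted p = 4.09e-05). ASPM, a spindle pole protein on chromosome 16 from 74621837 to 74683207, went from 658, 649.9 and 475 to 25.9, 27.2 and 161 RPM (log2 fold change -3.57, SE 0.56, adjusted p = 3.72e-05). In each of these genes 16-cell C kept several times more RNA than 16-cell A, yet lay below every 8-cell library, as the naming rule required.

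RARS2, the mitochondrial arginyl-tRNA synthetase, fell from 385, 423 and 497 to 19.3, 21.7 and 99.2 RPM (log2 fold change -3.60, SE 0.55, adjusted p = 2.49e-05). It overlaps ORC3, a subunit of the origin recognition complex on the opposite strand, which went from 133, 141 and 163 to 8.79, 15.9 and 50.4 RPM (log2 fold change -2.84, SE 0.52, adjusted p = 1.86e-04). Whether the reads were counted by strand is not given, so reads of these genes cannot be told apart where they overlap. VPS50, a tethering subunit of endosome recycling, went from 44.6, 49.8 and 41.3 to 1.29, 3.09 and 7.28 RPM (log2 fold change -3.43, SE 0.54, adjusted p = 3.47e-05). CCDC14, a protein of centriolar satellites, went from 105, 117 and 93.0 to 3.28, 6.66 and 25.8 RPM (log2 fold change -3.46, SE 0.53, adjusted p = 2.49e-05).

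**Figure D3:**
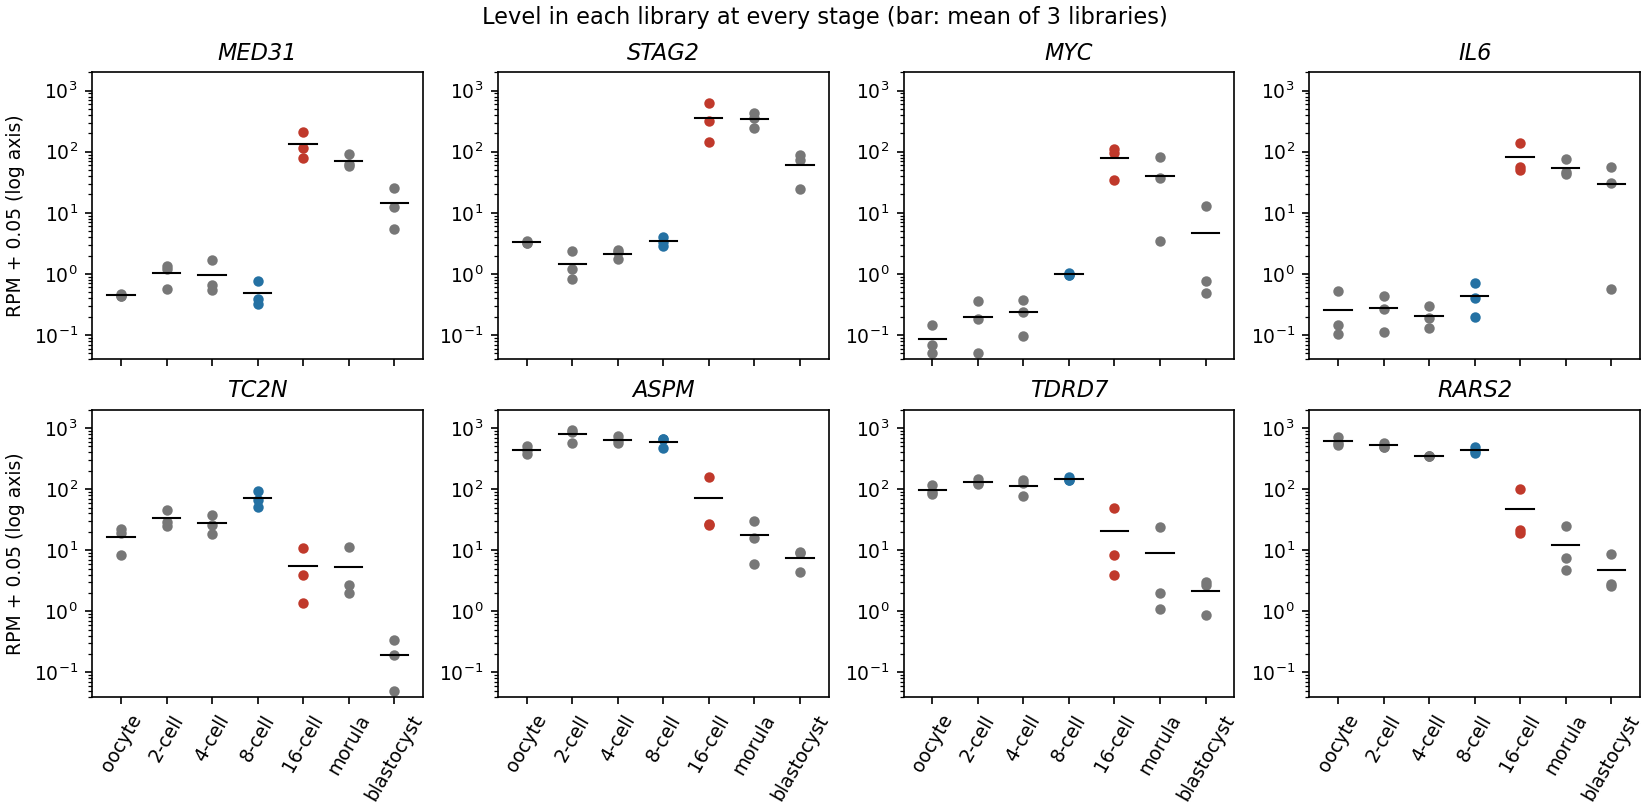
Level of 8 genes in every library (points) at the 7 stages (x axis), as RPM + 0.05 on a log axis, with the mean of the 3 libraries as a bar, blue for the 8-cell and red for the 16-cell stage. MED31, STAG2, MYC and IL6 stay low up to the 8-cell stage and are high at the 16-cell stage. ASPM, TDRD7 and RARS2 are high up to the 8-cell stage, while TC2N goes from a mean of 16.7 RPM in oocytes to 70.7 RPM at the 8-cell stage. All 4 of TC2N, ASPM, TDRD7 and RARS2 fall at the 16-cell stage, with 1 library of the stage still well above the others.

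Many transcription factors of the early embryo rose. In the list of genome-activation and early embryonic factors, 13 of 27 tested members were called higher and 2 lower (median log2 fold change 1.07, and 15 and 1 with median-ratio scaling). Here 1 was called lower on leaving out 8-cell A, 8-cell C or 16-cell B. MYC, a general activator of growth genes, stood at 0.911, 0.978 and 0.898 RPM and then 109.7, 94.9 and 34.9 RPM (log2 fold change 5.23, SE 0.81, adjusted p = 5.23e-05), and its relative MYCN at 0.0894, 0.0832 and 0 and then 58.5, 26.3 and 13.9 RPM (log2 fold change 4.77, SE 0.63, adjusted p = 6.13e-06), while the relative MYCL was at 16.7, 12.9 and 23.9 and 6.68, 1.91 and 9.96 RPM. MYCL was called lower (adjusted p = 0.0284), a call lost with all 3 other scalings, with a pseudocount of 0.25 RPM, without a filter and on leaving out 8-cell A, 8-cell C or 16-cell B, where the adjusted p reached 0.186. GABPA, an ETS factor of housekeeping promoters, went from 28.5, 30.6 and 53.0 to 821, 539.6 and 227 RPM (log2 fold change 3.66, SE 0.58, adjusted p = 3.91e-05). KLF3, a zinc-finger repressor, went from 0.197, 0.146 and 0.225 to 47.8, 34.1 and 11.7 RPM (log2 fold change 4.55, SE 0.41, adjusted p = 2.31e-08). YY1, a zinc-finger factor of promoters and enhancers, went from 29.9, 28.3 and 33.7 to 266, 324 and 113 RPM (log2 fold change 2.77, SE 0.41, adjusted p = 1.70e-05). GABPA, KLF3 and YY1 lie outside the rule for named genes and were picked after their values were seen.

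In the pluripotency list 11 of 21 tested members were called higher and 5 lower (median log2 fold change 1.42, and 11 and 2 with median-ratio scaling). In this list 3 were called lower on leaving out 8-cell A or 16-cell B, and 2 were called lower without 16-cell A. PRDM14, a repressor active in pluripotent cells and the germline, went from 0.483, 1.29 and 3.52 to 89.9, 87.7 and 41.2 RPM (log2 fold change 4.81, SE 0.39, adjusted p = 4.48e-09). The core factors did not move together. NANOG was at 0.579, 0.957 and 0.973 and then 4.37, 3.42 and 4.14 RPM (log2 fold change 1.44, SE 0.34, adjusted p = 0.00143), whereas POU5F1 was at 3.30, 3.91 and 3.31 and then 0.46, 1.07 and 2.39 RPM (log2 fold change -1.05, SE 0.38, adjusted p = 0.025). The NANOG call was lost with a pseudocount of 5 RPM. The POU5F1 call was lost with all 3 other scalings, with a pseudocount of 5 RPM, on the RPKM scale and on leaving out 8-cell A, 8-cell B, 16-cell A or 16-cell B, where its adjusted p reached 0.142. Both genes were looked up after their values were seen. In the list of trophectoderm and endoderm genes 7 of 23 tested members were called higher and 3 lower (median log2 fold change 0.23, and 8 and 2 with median-ratio scaling). Of these, 6 were called lower without 16-cell C. WWTR1, a coactivator of TEAD factors that is restrained by the Hippo pathway, went from 1.04, 0.687 and 0.842 to 16.3, 95.7 and 15.7 RPM (log2 fold change 4.04, SE 0.56, adjusted p = 7.45e-06), with the highest level in 16-cell B. DAB2, an endocytic adaptor known from primitive endoderm, went from 0.268, 0.541 and 0.487 to 14.2, 11.4 and 21.9 RPM (log2 fold change 3.51, SE 0.55, adjusted p = 3.50e-05), a call lost on the RPKM scale.

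Among immediate-early and stress transcription factors 9 of 23 tested members were called higher and 3 lower (median log2 fold change 0.23, and 10 and 2 with median-ratio scaling). BTG3, an antiproliferative relative of BTG4, went from 2.75, 2.996 and 7.34 to 183, 229.6 and 96.1 RPM (log2 fold change 5.0, SE 0.56, adjusted p = 4.25e-07). FOS, a subunit of AP-1, went from 0.59, 1.04 and 1.74 to 11.02, 24.6 and 11.8 RPM (log2 fold change 2.93, SE 0.52, adjusted p = 1.22e-04). NFKBIA, the inhibitor of NF-kappaB, fell from 199, 198 and 137 to 16.7, 14.1 and 99.1 RPM (log2 fold change -2.56, SE 0.70, adjusted p = 0.00472). HIF1A, the hypoxia-regulated transcription factor, went from 151, 130.0 and 164 to 30.6, 30.1 and 59.4 RPM (log2 fold change -1.93, SE 0.37, adjusted p = 2.56e-04).

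No cytosolic ribosomal protein gene was called lower. Of cytosolic ribosomal protein genes, 25 of 32 tested members were called higher and 0 lower (median log2 fold change 1.66, and 26 and 0 with median-ratio scaling). Only 32 of 83 listed genes were found in the table, and near-identical copies elsewhere in the genome make the counts of these genes uncertain. RPL10A, a protein of the large subunit, went from 0.535, 0.486 and 1.32 to 12.9, 28.2 and 14.3 RPM (log2 fold change 3.40, SE 0.38, adjusted p = 5.01e-07). RPLP0, of the ribosomal stalk, was not called at 141, 97.2 and 83.8 and 132, 168 and 123 RPM (log2 fold change 0.41, SE 0.36, adjusted p = 0.343). RPLP0 was picked after its values were seen.

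For nucleolar ribosome assembly 38 of 89 tested members were called higher and 9 lower (median log2 fold change 0.52, and 43 and 7 with median-ratio scaling). WDR12, a member of the PeBoW complex of large-subunit maturation, went from 0.143, 0.229 and 0.374 to 48.5, 79.4 and 30.1 RPM (log2 fold change 5.32, SE 0.54, adjusted p = 1.29e-07). In the opposite direction, NOL10, a nucleolar protein, fell from 118, 131 and 62.8 to 8.99, 19.8 and 22.3 RPM (log2 fold change -2.56, SE 0.48, adjusted p = 2.30e-04). Assembly factors were therefore mixed, unlike the ribosomal proteins, though that difference was not tested. For mitochondrial ribosomal proteins 22 of 58 tested members were called higher and 9 lower (median log2 fold change 0.47, and 26 and 5 with median-ratio scaling). For these genes 5 were called lower without 16-cell A. MRPL27 went from 0.625, 0.166 and 0.88 to 13.9, 22.8 and 8.68 RPM (log2 fold change 3.31, SE 0.41, adjusted p = 1.94e-06). MRPL42, of the same subunit, fell from 163, 128 and 282 to 14.5, 27.2 and 91.3 RPM (log2 fold change -2.41, SE 0.63, adjusted p = 0.00349).

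Among translation factors 17 of 41 tested members were called higher and 7 lower (median log2 fold change 0.65, and 20 and 4 with median-ratio scaling). Of its members, 11 were called higher on leaving out 8-cell C or 16-cell B, and 4 were called lower on leaving out 8-cell A or 16-cell A. DENR, which recycles ribosomes and helps reinitiation, went from 1.04, 0.694 and 1.63 to 29.0, 40.9 and 19.4 RPM (log2 fold change 3.82, SE 0.45, adjusted p = 1.02e-06). EIF3G, a subunit of the scaffold on the small ribosomal subunit, went from 6.77, 5.97 and 4.74 to 31.4, 82.5 and 34.8 RPM (log2 fold change 2.76, SE 0.46, adjusted p = 6.74e-05). EIF4G3, a scaffold of cap-dependent initiation, fell from 62.0, 46.0 and 35.1 to 4.61, 7.47 and 28.2 RPM (log2 fold change -2.09, SE 0.59, adjusted p = 0.0054). Of aminoacyl-tRNA synthetases, 7 of 30 tested members (23.3%) were called higher and 9 (30%) lower (median log2 fold change -0.24, and 8 and 7 with median-ratio scaling). Among all genes tested these shares were 15.4 and 30.7%. SARS, the cytosolic seryl enzyme, went from 4.32, 5.24 and 4.47 to 34.9, 37.6 and 19.96 RPM (log2 fold change 2.44, SE 0.50, adjusted p = 4.51e-04). EPRS, the bifunctional glutamyl-prolyl enzyme, fell from 211, 215 and 104 to 8.42, 14.8 and 42.6 RPM (log2 fold change -3.18, SE 0.46, adjusted p = 1.47e-05).

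Genes of the machinery that makes and processes RNA were called in both directions too. Among all genes tested 15.4% were called higher and 30.7% lower. In the list of transcription machinery 13 of 71 tested members were called higher and 18 lower (median log2 fold change -0.43, and 18 and 9 with median-ratio scaling), so the balance of calls reversed with the scaling. Among them, 8 were called higher without 16-cell B. ELL2, an elongation factor, rose from 9.42, 11.96 and 17.7 to 215, 379.7 and 191 RPM (log2 fold change 4.21, SE 0.49, adjusted p = 9.35e-07). LEO1, a subunit of the PAF1 elongation complex, fell from 1137, 1338 and 982 to 117, 134 and 435 RPM (log2 fold change -2.58, SE 0.63, adjusted p = 0.00205). For RNA polymerases I and III, which transcribe ribosomal and transfer RNA, 9 of 30 tested members were called higher and 5 lower (median log2 fold change 0.03, and 13 and 3 with median-ratio scaling). Here 2 were called lower without 16-cell A. POLR3E, a polymerase III subunit, went from 0.554, 0.52 and 0.431 to 23.4, 23.7 and 8.10 RPM (log2 fold change 3.56, SE 0.35, adjusted p = 9.34e-08). POLR1E, a polymerase I subunit, went from 29.3, 32.9 and 39.8 to 359, 330.0 and 119 RPM (log2 fold change 2.80, SE 0.50, adjusted p = 1.37e-04). TTF1, which ends transcription by polymerase I, fell from 97.8, 72.1 and 64.3 to 12.7, 24.1 and 43.6 RPM (log2 fold change -1.65, SE 0.43, adjusted p = 0.00307).

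Among splicing genes 24 of 80 tested members were called higher and 10 lower (median log2 fold change 0.35, and 36 and 6 with median-ratio scaling). In this list 6 were called lower without 16-cell A. SF3B3, a subunit of the U2 particle that selects branch points, rose from 5.38, 3.85 and 2.53 to 123, 56.9 and 39.7 RPM (log2 fold change 3.79, SE 0.46, adjusted p = 1.36e-06). BUD31, a component of activated spliceosomes, went from 2.18, 2.16 and 3.50 to 92.4, 68.0 and 14.7 RPM (log2 fold change 3.71, SE 0.57, adjusted p = 2.77e-05). RBM3, a cold-inducible RNA-binding protein, varied widely among its stage mates, at 9.27, 9.11 and 20.3 RPM and then 735, 274 and 61.6 RPM (log2 fold change 4.16, SE 0.64, adjusted p = 2.56e-05). PTBP2, a splicing regulator best known from neurons and germ cells, fell from 45.9, 50.7 and 54.8 to 7.62, 10.9 and 21.8 RPM (log2 fold change -1.95, SE 0.48, adjusted p = 0.00217).

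Transcripts of the mitochondrial genome do not come from the nucleus, and they gained reads as well. The genes on the mitochondrial chromosome took 4.72, 3.29 and 2.10% of gene reads in the 8-cell libraries and 13.2, 10.6 and 6.87% in the 16-cell libraries, with no overlap. Of the mitochondrially encoded transcripts, 3 of 13 tested members were called higher and 0 lower (median log2 fold change 1.32, and 9 and 0 with median-ratio scaling). Of these, 5 were called higher without 8-cell A, 1 was called higher without 8-cell B, 0 were called higher on leaving out 8-cell C, 16-cell A or 16-cell B, and 6 were called higher without 16-cell C. CYTB of complex III stood at 978, 687 and 548 and then 2306, 1899.6 and 1309 RPM (log2 fold change 1.32, SE 0.55, adjusted p = 0.0473), a call lost with a pseudocount of 5 RPM, without a filter, on the RPKM scale, with a replicate block and on leaving out any library but 16-cell C, where the adjusted p reached 0.148. Among nuclear genes of the respiratory chain 12 of 48 tested members were called higher and 3 lower (median log2 fold change 0.17, and 15 and 2 with median-ratio scaling). For these genes 1 was called lower without 16-cell A, and 9 were called lower without 16-cell C. UQCRFS1, the Rieske protein of complex III, rose from 0.768, 1.21 and 0.786 to 15.5, 30.4 and 8.93 RPM (log2 fold change 3.18, SE 0.43, adjusted p = 6.10e-06), while NDUFS1 of complex I fell from 8.04, 9.45 and 7.58 to 0.273, 0.352 and 1.37 RPM (log2 fold change -2.54, SE 0.55, adjusted p = 8.13e-04).

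For glycolysis and glucose uptake 4 of 22 tested members were called higher and 2 lower (median log2 fold change -0.03, and 4 and 1 with median-ratio scaling). Of its members, 1 was called lower on leaving out 16-cell A or 16-cell B, and 4 were called lower without 16-cell C. SLC2A3, the high-affinity glucose transporter GLUT3, rose from 1.75, 10.2 and 26.8 to 203, 295 and 113 RPM (log2 fold change 4.32, SE 0.58, adjusted p = 5.58e-06). LDHC, the germ cell form of lactate dehydrogenase, fell from 95.0, 81.6 and 78.2 to 8.09, 7.32 and 52.0 RPM (log2 fold change -2.43, SE 0.59, adjusted p = 0.00186). Of sterol and lipid genes, 2 of 36 tested members were called higher and 14 lower (median log2 fold change -0.64, and 4 and 8 with median-ratio scaling). The share called lower was 38.9%, against 30.7% of all genes tested. Among them, 1 was called higher on leaving out 8-cell A, 8-cell B, 8-cell C, 16-cell A or 16-cell B, and 8 were called lower without 16-cell A. FDPS, which makes farnesyl diphosphate for sterols and prenylation, went from 23.9, 22.6 and 32.8 to 0.801, 2.59 and 10.03 RPM (log2 fold change -2.71, SE 0.67, adjusted p = 0.00213). In nucleotide and polyamine metabolism 6 of 39 tested members (15.4%) were called higher and 11 (28.2%) lower (median log2 fold change -0.29, and 8 and 8 with median-ratio scaling). Those shares were near the 15.4 and 30.7% of all genes tested. GART, which carries several steps of purine synthesis, rose from 1.07, 1.64 and 1.24 to 46.6, 44.4 and 16.9 RPM (log2 fold change 3.88, SE 0.38, adjusted p = 8.35e-08). GMPS, which makes guanosine monophosphate, fell from 150.03, 142 and 139 to 16.3, 16.1 and 57.0 RPM (log2 fold change -2.49, SE 0.46, adjusted p = 1.88e-04).

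The lists of oocyte-secreted and maternal-effect genes had 70 and 45% of tested members called lower, against 30.7% of all genes tested. Of oocyte-secreted and zona genes, 0 of 10 tested members were called higher and 7 lower (median log2 fold change -1.78, and 0 and 5 with median-ratio scaling). Here 4 were called lower without 16-cell A. The 7 lower members included KIT, the receptor of the oocyte for stem cell factor, at 87.6, 101 and 66.1 and then 14.6, 26.8 and 41.2 RPM (log2 fold change -1.68, SE 0.49, adjusted p = 0.00712), which was picked after its values were seen. That call was lost on the RPKM scale and without 16-cell A, where the adjusted p was 0.0543. For the subcortical maternal complex and maternal-effect proteins 3 of 20 tested members were called higher and 9 lower (median log2 fold change -1.48, and 3 and 7 with median-ratio scaling). ACCSL, an oocyte-enriched gene, fell from 373, 372 and 288 to 21.4, 48.7 and 150.47 RPM (log2 fold change -2.64, SE 0.63, adjusted p = 0.00175). NLRP9, of the NLR family expressed in oocytes, went from 149, 169 and 114 to 15.4, 15.3 and 58.6 RPM (log2 fold change -2.51, SE 0.72, adjusted p = 0.00655). Of the 3 members that rose, ZFP57, which maintains imprints in the oocyte and early embryo, had no read in any 8-cell library and was then at 1.97, 5.31 and 0.698 RPM (adjusted p = 5.13e-04), a call lost with a pseudocount of 5 RPM. CTCF, which anchors chromatin loops, went from 2.52, 3.50 and 2.26 to 13.6, 21.8 and 8.33 RPM (log2 fold change 1.97, SE 0.41, adjusted p = 5.98e-04). HSF2, a heat shock factor, went from 2.65, 3.27 and 1.53 to 17.6, 39.3 and 12.2 RPM (log2 fold change 2.66, SE 0.44, adjusted p = 6.78e-05).

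Of the genes that destroy and silence maternal RNA, 12 of 73 tested members were called higher and 26 lower (median log2 fold change -0.70, and 17 and 15 with median-ratio scaling). Their shares of 16.4 and 35.6% were near the 15.4 and 30.7% of all genes tested. YTHDF2, which marks methylated mRNA for decay, went from 3.91, 3.12 and 1.70 to 45.9, 61.7 and 34.2 RPM (log2 fold change 3.63, SE 0.42, adjusted p = 6.80e-07). TNRC6B, a scaffold of microRNA silencing, fell from 32.3, 38.7 and 20.8 to 1.11, 4.85 and 2.65 RPM (log2 fold change -3.11, SE 0.45, adjusted p = 1.43e-05). PAPOLG, a poly(A) polymerase, went from 484, 581 and 334 to 32.0, 46.0 and 141 RPM (log2 fold change -2.92, SE 0.60, adjusted p = 4.73e-04). In the list of meiotic arrest and anaphase-promoting complex genes 2 of 33 tested members were called higher and 11 lower (median log2 fold change -0.88, and 3 and 6 with median-ratio scaling). In this list 1 was called higher on leaving out 8-cell A, 8-cell B, 8-cell C or 16-cell B, 0 were called higher without 16-cell A, and 6 were called lower without 16-cell A. MASTL, the kinase that protects mitotic phosphorylation, fell from 84.1, 109.8 and 66.4 to 7.01, 12.02 and 19.4 RPM (log2 fold change -2.74, SE 0.48, adjusted p = 1.21e-04).

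Of meiosis and germline genes, 4 of 35 tested members were called higher and 18 lower (median log2 fold change -1.23, and 5 and 12 with median-ratio scaling). Of these, 2 were called higher without 16-cell B, and 11 were called lower without 16-cell A. TDRD7, a tudor protein of germ granules, went from 139, 158 and 142 to 3.87, 8.42 and 49.3 RPM (log2 fold change -3.48, SE 0.73, adjusted p = 6.21e-04) and its relative TDRD5 from 46.4, 55.4 and 44.7 to 1.45, 2.67 and 11.7 RPM (log2 fold change -3.36, SE 0.49, adjusted p = 1.57e-05). HORMAD1, a protein of meiotic chromosome axes, rose from 0.0536, 0.229 and 0.374 to 4.83, 32.3 and 8.51 RPM (log2 fold change 3.34, SE 0.53, adjusted p = 4.53e-05), with most of it in 16-cell B.

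Several genes used in the oocyte have a close relative used in other cells, and both members of 6 such pairs were tested. Among oocyte-type members 1 of 12 tested (8.33%) was called higher and 6 (50%) lower (median log2 fold change -1.56, and 1 and 4 with median-ratio scaling). Among their somatic relatives 2 of 10 tested members (20%) were called higher and 3 (30%) lower (median log2 fold change -0.37, and 3 and 0 with median-ratio scaling). All genes tested had shares of 15.4 and 30.7%. The 3 lower calls among somatic relatives became 1 on leaving out 8-cell A, 8-cell B, 16-cell A or 16-cell B. CNOT6L, a catalytic deadenylase subunit of the oocyte, was at 42.5, 42.7 and 34.0 and then 9.73, 8.57 and 17.4 RPM (log2 fold change -1.71, SE 0.53, adjusted p = 0.0104), and its relative CNOT6 at 14.1, 13.8 and 15.7 and then 3.95, 4.35 and 6.72 RPM (log2 fold change -1.40, SE 0.34, adjusted p = 0.00205), a call lost with median-ratio scaling and with a pseudocount of 5 RPM. BTG4 did not pass the test, at 2874, 2338 and 2884 and then 766, 581 and 2011 RPM (log2 fold change -1.48, SE 0.78, adjusted p = 0.112), while its relative BTG1 rose from 1.09, 1.25 and 0.955 to 6.31, 13.1 and 6.98 RPM (log2 fold change 2.16, SE 0.34, adjusted p = 4.05e-05). The linker histone H1FOO missed the threshold at 133, 120.3 and 102 and then 17.7, 18.8 and 96.8 RPM (log2 fold change -1.85, SE 0.78, adjusted p = 0.0506), with 16-cell C close to the 8-cell level. The somatic linker histone H1F0 was at 4.43, 4.89 and 2.96 and then 2.73, 2.11 and 5.16 RPM (log2 fold change -0.27, SE 0.52, adjusted p = 0.667). TUBA4A was listed as an oocyte-type member, but its oocyte mean was 0.010 RPM, below the level of 1 read. It rose from 1.66, 2.45 and 2.62 to 74.3, 32.3 and 18.3 RPM (log2 fold change 3.50, SE 0.48, adjusted p = 8.27e-06).

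In the lists of DNA replication, of the spindle and of chromosome cohesion and repair, 53.1, 47.8 and 47.5% of tested members were called lower, against 30.7% of all genes tested. For DNA replication 3 of 49 tested members were called higher and 26 lower (median log2 fold change -1.27, and 4 and 17 with median-ratio scaling). MCM10, which helps fire origins, went from 199, 242 and 121 to 18.7, 25.8 and 62.1 RPM (log2 fold change -2.49, SE 0.51, adjusted p = 4.59e-04), and ORC4, of the origin recognition complex, was at 88.6, 96.3 and 117 and then 7.25, 20.9 and 31.4 RPM (log2 fold change -2.49, SE 0.46, adjusted p = 1.87e-04), a call lost on the RPKM scale. DBF4, the activating subunit of the CDC7 kinase, rose instead, from 35.6, 25.9 and 20.3 to 148, 227 and 50.8 RPM (log2 fold change 2.13, SE 0.48, adjusted p = 0.00105). For kinetochore, spindle and kinesin genes 5 of 67 tested members were called higher and 32 lower (median log2 fold change -0.98, and 9 and 23 with median-ratio scaling). For these genes 21 were called lower without 16-cell A. CKAP5, a microtubule polymerase, fell from 428, 395 and 235 to 20.6, 35.1 and 110.4 RPM (log2 fold change -2.95, SE 0.58, adjusted p = 3.21e-04). SPC25, a kinetochore subunit of the NDC80 complex, rose from 13.5, 17.6 and 36.1 to 325, 230.0 and 118 RPM (log2 fold change 3.27, SE 0.57, adjusted p = 1.02e-04). CEP55, which acts in the last step of cell separation, went from 2.97, 3.72 and 6.23 to 51.3, 49.2 and 26.5 RPM (log2 fold change 3.02, SE 0.49, adjusted p = 4.61e-05).

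For cohesin, condensin and DNA repair 5 of 59 tested members were called higher and 28 lower (median log2 fold change -0.86, and 6 and 17 with median-ratio scaling). Of its members, 18 were called lower without 16-cell A. Here STAG2 and the mismatch repair gene MSH6 rose, the latter from 9.95, 9.09 and 5.48 to 82.4, 130.3 and 26.9 RPM (log2 fold change 2.91, SE 0.49, adjusted p = 7.09e-05), and so did the checkpoint kinase CHEK2, from 1.18, 1.56 and 4.19 to 24.1, 42.2 and 14.1 RPM (log2 fold change 3.05, SE 0.45, adjusted p = 1.58e-05). BRCA2, which acts in the repair of DNA breaks by recombination, fell from 1769, 1599.8 and 1028 to 119, 257 and 390.0 RPM (log2 fold change -2.64, SE 0.54, adjusted p = 4.59e-04). FANCI, of the crosslink repair pathway, went from 161, 174 and 117 to 7.93, 11.99 and 60.5 RPM (log2 fold change -2.96, SE 0.67, adjusted p = 0.00109). For cyclins and CDK regulators 8 of 40 tested members were called higher and 10 lower (median log2 fold change -0.27, and 10 and 3 with median-ratio scaling). Among them, 6 were called lower without 16-cell A. CCNE2, an activator of CDK2 at the start of S phase, went from 2.57, 2.497 and 4.49 to 25.8, 25.3 and 10.7 RPM (log2 fold change 2.30, SE 0.44, adjusted p = 2.80e-04). E2F3, an activating E2F, went from 0.876, 0.541 and 1.48 to 13.6, 6.41 and 8.58 RPM (log2 fold change 2.39, SE 0.31, adjusted p = 2.89e-06). E2F8, a repressing E2F, fell from 21.7, 22.5 and 11.9 to 1.23, 1.89 and 5.05 RPM (log2 fold change -2.49, SE 0.40, adjusted p = 4.08e-05). CDK1 was at 156, 188 and 170.4 and then 927, 548 and 251 RPM (log2 fold change 1.55, SE 0.58, adjusted p = 0.0275), a call lost without a filter on low values and on leaving out any library but 16-cell C, where its adjusted p reached 0.156.

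Chromatin genes were called in both directions, as were genes in general, with 15.4% of all genes tested called higher and 30.7% lower. For histone modifiers and remodelers 12 of 88 tested members (13.6%) were called higher and 35 (39.8%) lower (median log2 fold change -0.75, and 16 and 20 with median-ratio scaling). The class I deacetylases parted, with HDAC2 rising from 17.4, 19.5 and 21.7 to 304, 324 and 185 RPM (log2 fold change 3.69, SE 0.39, adjusted p = 1.98e-07) and HDAC3 going from 16.2, 18.8 and 10.2 to 0.43, 0.629 and 3.68 RPM (log2 fold change -2.82, SE 0.41, adjusted p = 1.48e-05). The HDAC3 call was lost on the RPKM scale. CBX3, a heterochromatin protein, rose from 7.95, 5.78 and 5.54 to 248, 132 and 52.8 RPM (log2 fold change 4.05, SE 0.53, adjusted p = 4.15e-06). KDM1B, a histone demethylase needed in the oocyte for maternal imprints, fell from 17.3, 22.7 and 19.3 to 1.05, 2.01 and 5.35 RPM (log2 fold change -2.60, SE 0.53, adjusted p = 4.21e-04). For linker and core histones 4 of 27 tested members (14.8%) were called higher and 3 (11.1%) lower (median log2 fold change -0.43, and 5 and 2 with median-ratio scaling). Here 7 were called lower without 16-cell C. The H2A.Z genes H2AFV and H2AFZ both rose, H2AFV from 9.33, 9.80 and 26.5 to 339.6, 218 and 156 RPM (log2 fold change 3.96, SE 0.44, adjusted p = 3.85e-07). Their products are nearly identical, so reads may have been shared between them or with copies. For DNA methylation 3 of 20 tested members (15%) were called higher and 7 (35%) lower (median log2 fold change -0.69, and 4 and 6 with median-ratio scaling). Those shares were near the 15.4 and 30.7% of all genes tested. In this list 4 were called lower without 16-cell A. ZBTB33, a reader of methylated DNA also called Kaiso, fell from 175, 181 and 115 to 10.8, 22.5 and 40.4 RPM (log2 fold change -2.78, SE 0.54, adjusted p = 3.24e-04).

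Protein turnover genes were also called in both directions, as were genes in general. For the proteasome 9 of 39 tested members were called higher and 7 lower (median log2 fold change -0.15, and 13 and 5 with median-ratio scaling). Of these, 4 were called lower without 16-cell A. PSMG2, an assembly chaperone, rose from 5.04, 4.16 and 5.97 to 73.3, 109.7 and 40.8 RPM (log2 fold change 3.54, SE 0.53, adjusted p = 2.07e-05). PSME4, a cap known from testis, fell from 68.6, 65.5 and 44.4 to 5.39, 12.9 and 14.7 RPM (log2 fold change -2.41, SE 0.51, adjusted p = 6.18e-04). For ubiquitin conjugation and ligases 12 of 79 tested members were called higher and 27 lower (median log2 fold change -0.69, and 16 and 16 with median-ratio scaling). At 15.2 and 34.2%, these shares were near the 15.4 and 30.7% of all genes tested. RNF11, a RING protein, rose from 0.107, 0.125 and 0.168 to 57.7, 19.7 and 10.8 RPM (log2 fold change 4.42, SE 0.43, adjusted p = 9.01e-08). BTRC and FBXW7, substrate adaptors of SCF ligases, fell, BTRC from 44.2, 67.4 and 54.3 to 3.36, 5.08 and 12.3 RPM (log2 fold change -2.97, SE 0.39, adjusted p = 4.41e-06) and FBXW7 from 329.7, 321 and 196 to 27.4, 28.0 and 64.3 RPM (log2 fold change -2.87, SE 0.55, adjusted p = 2.54e-04). For the TRIM family 1 of 17 tested members were called higher and 8 lower (median log2 fold change -1.14, and 1 and 4 with median-ratio scaling). For these genes 0 were called higher on leaving out 8-cell C or 16-cell B.

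For chaperones and heat shock genes 10 of 47 tested members were called higher and 8 lower (median log2 fold change -0.19, and 12 and 5 with median-ratio scaling). Of its members, 6 were called higher without 16-cell B, 5 were called lower on leaving out 8-cell B or 16-cell B, and 4 were called lower without 16-cell A. HSPA4L, a member of the HSP110 family, fell from 348, 398 and 296 to 26.8, 45.4 and 113 RPM (log2 fold change -2.71, SE 0.75, adjusted p = 0.00506). For endoplasmic reticulum stress and secretion 12 of 68 tested members (17.6%) were called higher and 19 (27.9%) lower (median log2 fold change -0.60, and 20 and 5 with median-ratio scaling). Those shares were near the 15.4 and 30.7% of all genes tested. Among them, 12 were called lower without 16-cell A. SSR1, next to the protein-conducting channel, rose from 14.8, 14.04 and 16.4 to 252, 125 and 80.2 RPM (log2 fold change 3.10, SE 0.61, adjusted p = 3.55e-04). ATF6, a stress sensor of this organelle, fell from 57.2, 54.2 and 31.2 to 6.58, 8.65 and 18.4 RPM (log2 fold change -2.06, SE 0.59, adjusted p = 0.00624). For antioxidants 3 of 31 tested members were called higher and 9 lower (median log2 fold change -0.35, and 5 and 6 with median-ratio scaling). Here 5 were called higher without 16-cell A. The peroxiredoxins parted, PRDX4 of the secretory pathway rising from 3.75, 4.14 and 3.26 to 40.3, 27.3 and 25.4 RPM (log2 fold change 2.74, SE 0.47, adjusted p = 8.33e-05) and mitochondrial PRDX3 falling from 27.5, 29.2 and 27.2 to 3.73, 4.60 and 10.3 RPM (log2 fold change -2.11, SE 0.53, adjusted p = 0.00232). For apoptosis and the BCL2 family 5 of 24 tested members (20.8%) were called higher and 7 (29.2%) lower (median log2 fold change -0.27, and 5 and 5 with median-ratio scaling). All genes tested had shares of 15.4 and 30.7%. APAF1, the scaffold of the apoptosome, fell from 46.6, 41.8 and 33.8 to 10.4, 8.45 and 14.6 RPM (log2 fold change -1.80, SE 0.47, adjusted p = 0.00315).

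For vesicle traffic, lysosome and autophagy 9 of 68 tested members were called higher and 22 lower (median log2 fold change -0.64, and 12 and 12 with median-ratio scaling). At 13.2 and 32.4%, these shares were near the 15.4 and 30.7% of all genes tested. In this list 13 were called lower without 16-cell A. The coatomer subunits COPB1 and COPB2, of vesicles between Golgi and endoplasmic reticulum, both fell, COPB2 from 124, 130.1 and 58.2 to 4.41, 12.6 and 18.9 RPM (log2 fold change -3.12, SE 0.48, adjusted p = 2.49e-05). RAB18, a GTPase of lipid droplets, rose from 6.49, 5.18 and 6.74 to 51.3, 84.9 and 26.7 RPM (log2 fold change 2.81, SE 0.51, adjusted p = 1.67e-04). For nuclear pores and transport 12 of 57 tested members were called higher and 19 lower (median log2 fold change -0.38, and 16 and 9 with median-ratio scaling). Of these, 7 were called lower without 16-cell A. KPNA4, an import adaptor, went from 0.322, 0.541 and 0.599 to 33.9, 30.3 and 13.0 RPM (log2 fold change 4.07, SE 0.36, adjusted p = 1.98e-08). IPO11, an import receptor, went from 0.125, 0.52 and 0.131 to 18.0, 17.0 and 14.9 RPM (log2 fold change 3.82, SE 0.34, adjusted p = 1.81e-08). The pore protein NUP153 fell from 409, 473 and 393 to 69.8, 95.9 and 112 RPM (log2 fold change -2.21, SE 0.54, adjusted p = 0.00205).

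Members of the signalling lists were called in both directions, in shares near those of all genes tested. For FGF, IGF and TGF-beta signalling 5 of 39 tested members were called higher and 13 lower (median log2 fold change -0.60, and 4 and 11 with median-ratio scaling). For these genes 3 were called higher on leaving out 8-cell B, 8-cell C or 16-cell A. DUSP6, a phosphatase induced by ERK signalling, rose from 6.74, 5.53 and 6.42 to 31.8, 40.8 and 30.5 RPM (log2 fold change 2.28, SE 0.41, adjusted p = 1.30e-04) and DUSP1 from 0.768, 0.978 and 1.24 to 30.8, 42.8 and 16.7 RPM (log2 fold change 3.87, SE 0.36, adjusted p = 3.70e-08). SMAD2, a transducer of activin and TGF-beta signals, fell from 48.6, 59.9 and 52.9 to 5.43, 4.83 and 11.7 RPM (log2 fold change -2.81, SE 0.42, adjusted p = 2.05e-05). SMAD5, a transducer of BMP signals, went from 167, 198 and 226 to 31.9, 28.3 and 73.4 RPM (log2 fold change -2.24, SE 0.68, adjusted p = 0.00903). For WNT, Hippo and Notch signalling 5 of 40 tested members were called higher and 15 lower (median log2 fold change -0.51, and 7 and 10 with median-ratio scaling). The Hippo kinases moved in both directions. LATS2 rose from 1.52, 0.978 and 0.524 to 3.93, 11.2 and 4.28 RPM (log2 fold change 1.80, SE 0.35, adjusted p = 2.84e-04), a call lost with a pseudocount of 5 RPM. STK3 and STK4 fell, STK3 from 217, 229 and 205 to 33.7, 28.3 and 95.0 RPM (log2 fold change -2.24, SE 0.44, adjusted p = 3.41e-04) and STK4 from 50.2, 58.5 and 41.4 to 4.30, 8.60 and 16.7 RPM (log2 fold change -2.39, SE 0.46, adjusted p = 2.75e-04). DKK1, a secreted WNT inhibitor, rose from 29.6, 36.7 and 47.8 to 142, 111 and 169 RPM (log2 fold change 1.86, SE 0.53, adjusted p = 0.00604).

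Of interferon and STAT genes, 1 of 21 tested members were called higher and 12 lower (median log2 fold change -1.12, and 2 and 6 with median-ratio scaling). Of its members, 2 were called higher without 16-cell C. JAK1, a receptor kinase, went from 35.5, 40.0 and 16.6 to 2.48, 3.14 and 10.1 RPM (log2 fold change -2.46, SE 0.62, adjusted p = 0.00264). IFNGR1, a subunit of the interferon gamma receptor, went from 208, 169.9 and 219 to 21.8, 38.2 and 57.7 RPM (log2 fold change -2.41, SE 0.40, adjusted p = 5.69e-05). OAS1, an antiviral enzyme, was the only member called higher on RPM, from 0.214, 0.583 and 1.39 to 13.4, 23.8 and 9.96 RPM (log2 fold change 3.25, SE 0.56, adjusted p = 1.27e-04). It overlaps a gene without a symbol on the same strand, so its reads may be shared.

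For junctions, polarity and adhesion 4 of 42 tested members were called higher and 20 lower (median log2 fold change -1.10, and 5 and 14 with median-ratio scaling). CTNNA1, which ties cadherins to actin, fell from 97.1, 137 and 80.02 to 3.32, 13.8 and 21.3 RPM (log2 fold change -3.20, SE 0.60, adjusted p = 2.18e-04). VCL, its partner at stretched junctions, went from 42.3, 50.1 and 34.3 to 3.46, 5.98 and 16.9 RPM (log2 fold change -2.38, SE 0.65, adjusted p = 0.00461). ITGAV, an integrin subunit, rose from 2.63, 3.02 and 3.37 to 30.6, 130.4 and 29.5 RPM (log2 fold change 3.65, SE 0.49, adjusted p = 5.05e-06), with 16-cell B highest. For actin, tubulin and keratin cytoskeleton 10 of 40 tested members were called higher and 8 lower (median log2 fold change 0.10, and 13 and 2 with median-ratio scaling). Among them, 5 were called lower on leaving out 8-cell A, 8-cell B or 16-cell B, and 2 were called lower without 16-cell A. S100A11, a calcium-binding protein, rose from 0.697, 0.416 and 5.84 to 171, 125 and 48.7 RPM (log2 fold change 5.33, SE 0.78, adjusted p = 1.94e-05). For solute carriers 5 of 30 tested members (16.7%) were called higher and 7 (23.3%) lower (median log2 fold change -0.51, and 5 and 4 with median-ratio scaling). All genes tested had shares of 15.4 and 30.7%. SLC25A3, the mitochondrial phosphate carrier, rose from 2.52, 4.06 and 2.99 to 52.4, 108 and 34.2 RPM (log2 fold change 3.83, SE 0.49, adjusted p = 3.14e-06). SLC7A3, a transporter of arginine and lysine, fell from 47.8, 50.9 and 51.0 to 3.30, 2.59 and 17.7 RPM (log2 fold change -2.94, SE 0.52, adjusted p = 1.26e-04). For circadian and cold-inducible genes 2 of 19 tested members were called higher and 6 lower (median log2 fold change -0.83, and 3 and 3 with median-ratio scaling). NOCT, a rhythmic phosphatase, rose from 0.751, 1.25 and 1.68 to 62.9, 53.8 and 22.2 RPM (log2 fold change 4.30, SE 0.37, adjusted p = 1.09e-08), and CLOCK fell from 117, 136 and 152 to 22.4, 26.0 and 33.5 RPM (log2 fold change -2.27, SE 0.58, adjusted p = 0.00278).

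**Figure D4:**
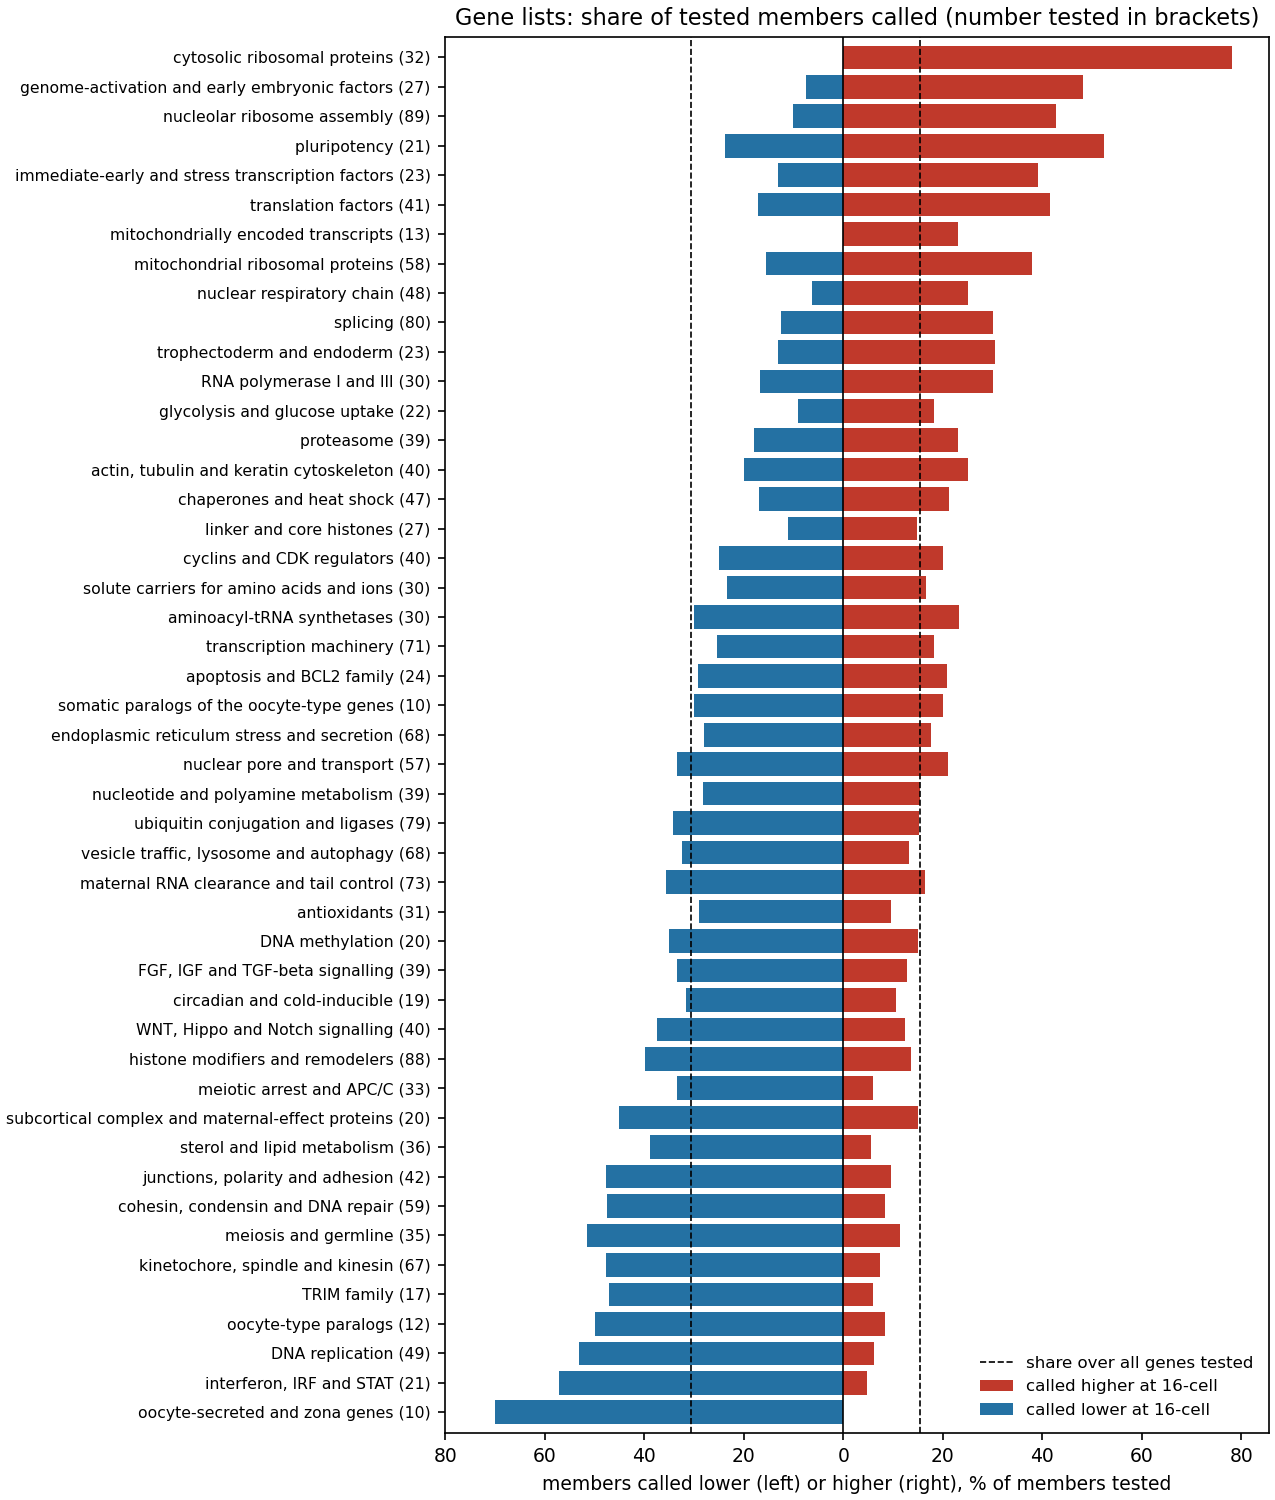
Share of the tested members of 47 gene lists that were called lower (blue, to the left) or higher (red, to the right) at the 16-cell stage, in percent, with the number of members tested in brackets. Dashed lines mark the shares over all genes tested, 30.7% lower and 15.4% higher. Cytosolic ribosomal proteins reach farthest to the right with no member lower, and oocyte-secreted and zona genes lie at the other end.

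The direction of change followed the length of the gene on the genome. The median span, from the listed start to the listed stop with introns, was 9.42 kb for genes called higher (quartiles 3.33 and 26.7 kb) and 47.0 kb for genes called lower (19.7 and 105 kb), against 19.4 kb for genes not called. In the shortest quintile of genes, up to 5.71 kb, 28.2% were called higher and 13.5% lower. In the longest quintile, from 82.1 kb, 5.15% were called higher and 50.05% lower. The 3 quintiles between them lay in order. Across genes, which are not independent replicates, Spearman's rho between span and log2 fold change was -0.38 over 10380 genes, leaving out 4 rows that pool the copies of an RNA family.

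The order was the same among abundant genes. Among the 3838 genes with a mean of at least 10 RPM at the 8-cell stage, 24.2% of the shortest quintile and 1.55% of the longest were called higher, 26.4 and 72.7% were called lower, and rho was -0.38. With median-ratio scaling the shares over all genes went from 35.6 to 6.78% higher and from 6.53 to 30.4% lower between the same quintiles. Relative to the 8-cell mean, the median gene of the longest quintile stood at -1.34, -1.18 and -0.68 log2 units in 16-cell A, B and C, and that of the shortest quintile at 0.05, 0.27 and 0.23. Libraries of the 8-cell stage also differed by span, though less. Relative to the other 8-cell libraries, the longest quintile stood at 0.09, 0.12 and -0.21 in 8-cell A, B and C. The shortest quintile stood at -0.03, -0.07 and 0.11. The gene lists differ in span too. The median was 2.72 kb for tested cytosolic ribosomal proteins, 12.7 kb for nucleolar ribosome assembly, 36.3 kb for kinetochore genes and 42.9 kb for junction genes, and 13.0 kb for the oocyte-secreted genes that fell. The part of span in the list counts, and of introns or read placement in the span order, was not tested.

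**Figure D5:**
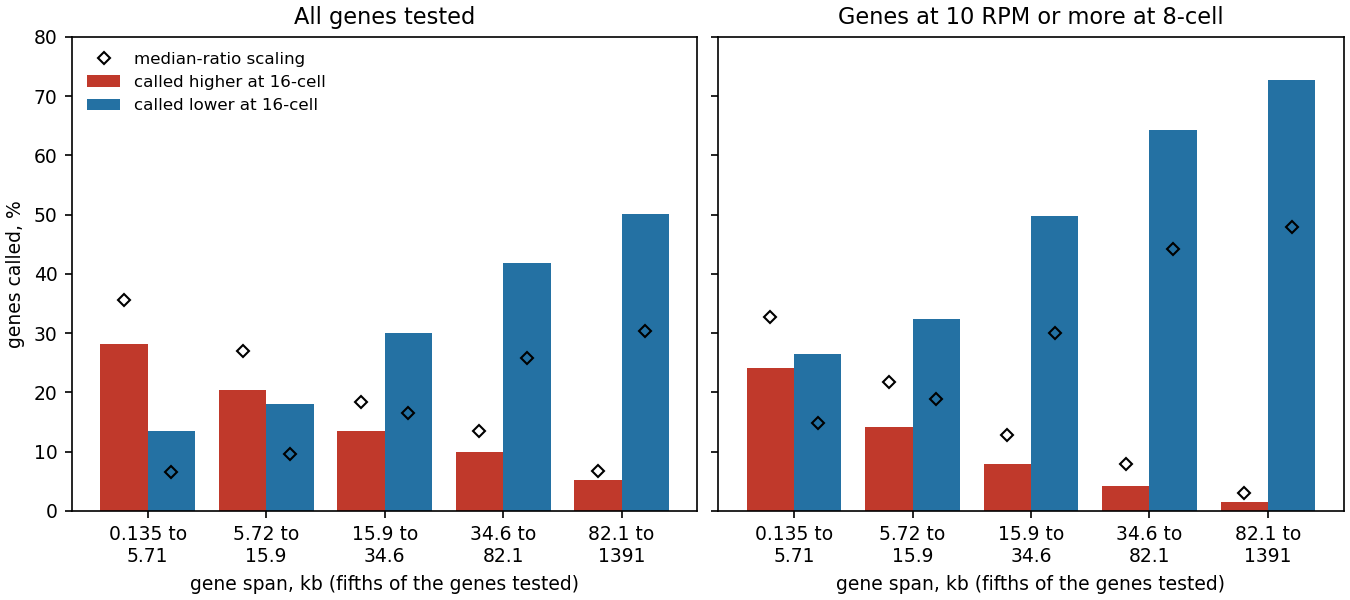
Share of genes called higher (red bars) or lower (blue bars) at the 16-cell stage, in percent, by quintile of gene span in kb (x axis), for all genes tested (left) and for genes with a mean of at least 10 RPM at the 8-cell stage (right). Open diamonds give the same shares with median-ratio scaling. From the shortest to the longest quintile of all genes, the share called higher goes from 28.2 to 5.15% and the share called lower from 13.5 to 50.05%.

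Markers of other cells that flushed embryos could carry were measured in the same libraries, and their part in the results was not tested. The oocyte and cleavage embryo markers identified the samples, with all 16 members found and tested. Their summed level was 6137 to 6752 RPM at the 8-cell stage and 1098 to 3915 RPM at the 16-cell stage, and 12 were called lower (7 with median-ratio scaling, 7 on leaving out 16-cell A or 16-cell B, and 16 without 16-cell C). Of the cumulus and granulosa markers, 8 of 17 found were tested, with sums of 185 to 221 and 58.3 to 102 RPM, and FSHR and INHA were at 3 reads or fewer in each of the 6 libraries. Of these 8, 2 were called higher and 1 lower, and leaving out single libraries gave 1 to 3 higher and 0 to 2 lower. CD44, an adhesion receptor, rose from 0, 0 and 2.70 to 2.77, 4.55 and 5.14 RPM (log2 fold change 1.71, SE 0.36, adjusted p = 6.74e-04), a call lost with a pseudocount of 5 RPM. VCAN, a matrix proteoglycan that made up most of the sum at the 8-cell stage, fell from 152, 189 and 163 to 25.2, 21.2 and 48.2 RPM (log2 fold change -2.46, SE 0.79, adjusted p = 0.0125), a call lost on the RPKM scale and without 16-cell B, where the adjusted p was 0.0505. The oviduct epithelium markers summed to 9.18 to 14.2 and 5.02 to 6.84 RPM, with PAX8 and ESR1 at 3 reads or fewer, and none of 4 tested was called (1 lower without 8-cell A). Leukocyte markers summed to 9.42 to 10.8 and 3.07 to 9.96 RPM, with CD4 and SPI1 at 3 reads or fewer, and 1 of 2 tested fell (0 without 16-cell A). The 5 erythrocyte markers found summed to 5.13 to 9.97 and 0.567 to 3.23 RPM, and the member tested fell. Stroma, endothelium and muscle markers summed to 97.6 to 110 and 88.6 to 124 RPM, with PDGFRB at 3 reads or fewer, and 2 of 8 tested rose and 1 fell (1 rose on leaving out 8-cell A, 8-cell B or 16-cell B, and 2 fell on leaving out 8-cell C or 16-cell C).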

How the data were processed

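RNA of 21 goat oocyte and embryo libraries was sequenced, 3 per stage. The authors deposited RPKM values, a column per library, for 19040 genes, of which 13323 carry a symbol. The submitters' processing notes name FastQC, STAR 2.5.3a and Partek without their roles. Build, strand setting and read counting were not given in the sources used here.

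Each deposited RPKM value held an offset of 0.01. With it removed, value times gene span in kb came in steps, and 95.3 to 96.6% of low values per library lay within 0.05 of a whole number of steps. That step is the RPM of 1 read and gives the depth. Tests used log2(RPM + 1) in limma 3.58.1 (R 4.3.3; trend, robust) over all 21 libraries by stage, for genes with at least 1 RPM in at least 3 libraries. The contrast was 16-cell minus 8-cell, two-sided, adjusted over 10384 genes. The pseudocount makes fold changes understate the change of low genes. On data simulated with these stages and library sizes (10360 genes) the fit called 33.0% of 2-fold, 97.0% of 4-fold and 0.148% of unchanged genes at the adjusted p alone. The changed genes, 100 per fold, all had 8-cell means of at least 5 RPM. Counts were drawn independently with a fixed spread, and no library was shifted as a whole. The rates may thus not hold for these libraries, where 16-cell C lay between the stages. Detected genes were compared by an exact permutation test. Tables and figures used Python 3.11.15, numpy 2.4.6, pandas 2.3.3, scipy 1.17.1 and matplotlib 3.10.9.

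The stages, the 53 gene lists and the naming rule were chosen with earlier results of these data known, so no list is independent evidence. Genes were named among called genes with a symbol and no overlap of the 3 against 3 libraries. These were the 12 largest rises and falls with a mean of at least 10 RPM in the higher stage, up to 3 rises and 3 falls per list, oocyte-type and somatic relatives, and 5 lincRNA genes each way by identifier. Not all are printed, and some genes are not reported here. Alternatives were other pseudocounts, filters and scalings, deposited RPKM, a replicate block, array weights, the 6 libraries alone and each library left out.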

Additional observations from a re-analysis of the deposited data

How the results depend on the processing

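Higher and lower calls numbered 1602 and 3187. They were 990 and 1857 with a pseudocount of 5 RPM, and 827 and 675 of 4253 genes on the deposited RPKM scale, where division by the gene span takes long genes under the filter. Median-ratio scaling moved the median gene from -0.52 to -0.14 and left 1798 lower calls. Why the scales differ was not tested. Leaving out 1 library gave 1326 to 1698 higher and 2212 to 3775 lower calls, and a difference in detected genes of -741 to -115 (-432 with all libraries). With a replicate block by library letter, 1593 were higher and 3209 lower. The letters share only a name, since same-letter libraries deviated with correlations of -0.098, 0.070 and -0.125. No called gene was called in the opposite direction under any of the 17 alternatives, and 781 of the higher and 1016 of the lower calls held in every one that tested the gene. Of 289 selected genes, 2 that were not called changed sign. H1F0 stood at 0.15 with median-ratio scaling and 0.0693 with quantile normalization, and PABPC1 at 0.0793 with median-ratio scaling. The fit of array weights stopped before full convergence. Depth limits genes near 3 reads, and 3 libraries per stage limit all tests.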

Other observations

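A larger share of genes was called higher on the X chromosome than on any autosome, a difference that was not tested. The table lists goat X genes on 2 scaffolds. The symbols they share with the RefSeq annotation of assembly ARS1.2, 165 on the first and 98 on the other, are all placed on X there. Of 301 genes tested on these scaffolds, 67 (22.3%) were called higher and 78 (25.9%) lower, while the share called higher ran from 10.6 to 19.5% over the 29 autosomes. With median-ratio scaling the X share was 29.1%, against 26.1% on chromosome 23, the highest autosome in that setting. Without 16-cell C the X share was 22.9%, little above the 22.2% of chromosome 18. Their median span of 19.0 kb was below the 23.8 kb of all genes tested, and the part of span in the X share was not tested. STAG2 and FUNDC1, among the largest rises, lie on these scaffolds.

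Genes that do not code for proteins were called in both directions too. Of 251 lincRNA genes tested, 26 (10.4%) were called higher and 65 (25.9%) lower, both below the 15.4 and 30.7% of all genes tested. ENSCHIG00000000631, a lincRNA gene, was at 0.59, 0.291 and 0.973 RPM in the 8-cell libraries and 61.1, 107 and 38.4 RPM in the 16-cell libraries (log2 fold change 5.33, SE 0.47, adjusted p = 1.71e-08). ENSCHIG00000001289, a lincRNA gene that overlaps another gene on the opposite strand, went from 57.5, 70.1 and 90.9 to 4.06, 2.89 and 34.3 RPM (log2 fold change -3.03, SE 0.80, adjusted p = 0.00367). Of 54 processed pseudogenes tested, 10 (18.5%) were called higher and 4 (7.41%) lower, and of 43 other pseudogenes 12 (27.9%) and 5 (11.6%). Reads of pseudogenes cannot be told apart from those of the parent genes here. Of all called genes, 1049 of 4789 carry no symbol.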
